A study of Mus musculus with 6 samples.

Results

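Circadian clock genes were examined in RNA of whole digit tips from mice in which Ctnnb1 was labelled as deleted in keratin 14 epithelium. The members were fixed as 10 genes of known role, Arntl, Npas2, Per1, Per2, Per3, Nr1d1, Nr1d2, Dbp, Tef and Hlf, and were taken from the deposited table as rows whose symbol was exactly that of the gene. Of these 10, 7 had such a row (Arntl, Npas2, Per1, Per3, Nr1d2, Tef and Hlf), out of 20793 genes tested in all. The other 3 lay only on transcript clusters (the array's probe set for a gene) that are annotated to a second gene as well, and they are described apart as shared clusters. The arrays were 3 of wild-type control mice and 3 of mice of genotype K14-CreER;Ctnnb1 cKO, called cKO here, all of intact digits at 8 weeks of age. K14-CreER is an inducible Cre recombinase under the keratin 14 promoter, which is active in basal epithelium of epidermis, nail and glands, so the other tissues of the digit were not targeted. The labels give no induction schedule, no hour of collection and no statement on whether controls carried Cre or received an inducer. Replicates are called biological, but whether 1 animal gave 1 array is not said, and the p-values therefore cover no more than the variation among these 6 arrays.

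The mammalian clock is a transcriptional loop. ARNTL (also called BMAL1) pairs with CLOCK or NPAS2 and activates genes through the E-box, among them the Per, Cry, Nr1d and Dbp genes. PER and CRY proteins then repress that activator, and the REV-ERB receptors encoded by Nr1d1 and Nr1d2 repress Arntl and Npas2 through a response element that ROR receptors activate. The PAR bZIP factors DBP, TEF and HLF carry the rhythm onward through the D-box, where NFIL3 opposes them. In mouse tissues the transcripts of Arntl and Npas2 run roughly in antiphase to those of Nr1d1 and Dbp. Collection at another hour can therefore move those sets in opposite directions, depending on the hours compared. Skin keeps such a clock in epidermis and dermis alike.

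Promoter windows are shown for the called genes Arntl and Hlf, and for Per3 and Tef as windows that hold a clock motif. Each is the 250 bases before a RefSeq transcript start on build GRCm38.p6, 5′ to 3′ on the strand of the gene, with capitals marking a motif. Arntl lies at chr7:113207261-113207510 on the plus strand, Hlf at chr11:90390918-90391167 on the minus strand, Per3 at chr4:151044666-151044915 on the minus strand and Tef at chr15:81802423-81802672 on the plus strand.
Arntl: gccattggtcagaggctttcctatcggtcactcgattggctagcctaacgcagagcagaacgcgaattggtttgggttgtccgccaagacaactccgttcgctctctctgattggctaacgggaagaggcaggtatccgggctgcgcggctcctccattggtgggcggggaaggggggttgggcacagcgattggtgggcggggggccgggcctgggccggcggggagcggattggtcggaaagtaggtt
Hlf: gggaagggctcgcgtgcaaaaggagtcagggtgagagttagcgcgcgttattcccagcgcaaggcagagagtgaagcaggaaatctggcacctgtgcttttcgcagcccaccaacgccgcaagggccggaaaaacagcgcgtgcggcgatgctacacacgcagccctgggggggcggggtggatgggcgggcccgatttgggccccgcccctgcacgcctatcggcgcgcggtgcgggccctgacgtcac
Per3: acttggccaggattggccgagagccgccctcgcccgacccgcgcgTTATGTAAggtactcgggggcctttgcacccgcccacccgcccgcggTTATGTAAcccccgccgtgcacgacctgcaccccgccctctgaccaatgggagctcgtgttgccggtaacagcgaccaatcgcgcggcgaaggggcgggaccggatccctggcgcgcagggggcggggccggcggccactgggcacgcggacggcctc
Tef: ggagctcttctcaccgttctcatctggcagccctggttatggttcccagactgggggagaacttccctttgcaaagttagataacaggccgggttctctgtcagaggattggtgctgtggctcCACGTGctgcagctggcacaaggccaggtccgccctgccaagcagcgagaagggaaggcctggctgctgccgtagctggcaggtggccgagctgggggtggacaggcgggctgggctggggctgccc
The motifs searched on both strands were the E-box CACGTG, the D-box TTATGTAA or TTACGTAA, and the core of the REV-ERB and ROR element, TAGGTCA or TGGGTCA. Per3 held 2 D-boxes, starting 205 and 158 bases before the transcript start, and Tef held 1 E-box starting 127 bases before it. Windows were given for 9 of the 10 members, 12 windows in all, and Per2 had none. An E-box was found in 3 of these 12 windows, of Per1 and Tef, against 6.02% of 32851 windows of all genes. A D-box was found in 1 window, that of Per3, against 0.931% of all windows, and the REV-ERB and ROR core in 0, against 5.38%. A match describes the letters and not a bound site, and these windows of Arntl and Hlf hold none of the letters searched. Bases after the transcript start and further upstream were not searched. A window without a match therefore does not show that the gene lacks the element.

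Values are on the log2 scale with the control median of each cluster as 0, so they carry no absolute level and no detection call, and levels of different genes cannot be set against each other. For the same reason the presence of digit tissues could not be checked from marker levels. Ctnnb1 itself, the targeted gene, differed by -1.14 ± 0.24 (limma standard error, n = 3 per group), with a limma adjusted p of 0.0284 (whether its probes read the deleted exons is not known). Leaving out control replicate 1 gave a limma adjusted p of 0.0795, and leaving out control replicate 3 gave 0.138. The same without cKO replicate 1 was 0.0944, and without cKO replicate 3 it was 0.148. The array of cKO replicate 1 stood apart in sex-linked genes. Its Ddx3y value was 8.08 and its Xist value -5.84, while the other 5 arrays lay between -0.22 and 0.01 for Ddx3y and between -0.39 and 0.08 for Xist. Without that array, Arntl, Hlf and Npas2 differed by -1.18, -1.13 and -0.50, and Per1, Per3, Nr1d2 and Tef by -0.85, -0.25, -0.08 and -0.03. In the same setting Clock differed by 0.25, Rora by -0.35, Ciart by -0.70, Fkbp5 by 1.59 and Sgk1 by 0.58.

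Arntl and Hlf fell in the cKO, and no member rose. Limma called 2 of the 7 members lower at an adjusted p of 0.05 over all genes, against 0.697% of all genes tested, and 5 did not pass. None was called higher (1.24% of all genes), and in none did all cKO arrays lie above all control arrays (10.1% of all genes). In those same 2 members every cKO array lay below every control array, against 9.25% of all genes. The median log2 difference of the 7 members was -0.56, against 0.00 over all genes (-0.0044). The 7 differences were all below 0, as were 50.4% of those of all genes, but those of Nr1d2 and Tef were close to 0 and changed sign with array weights, without control replicate 1 and without cKO replicate 2.

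**Figure D1:**
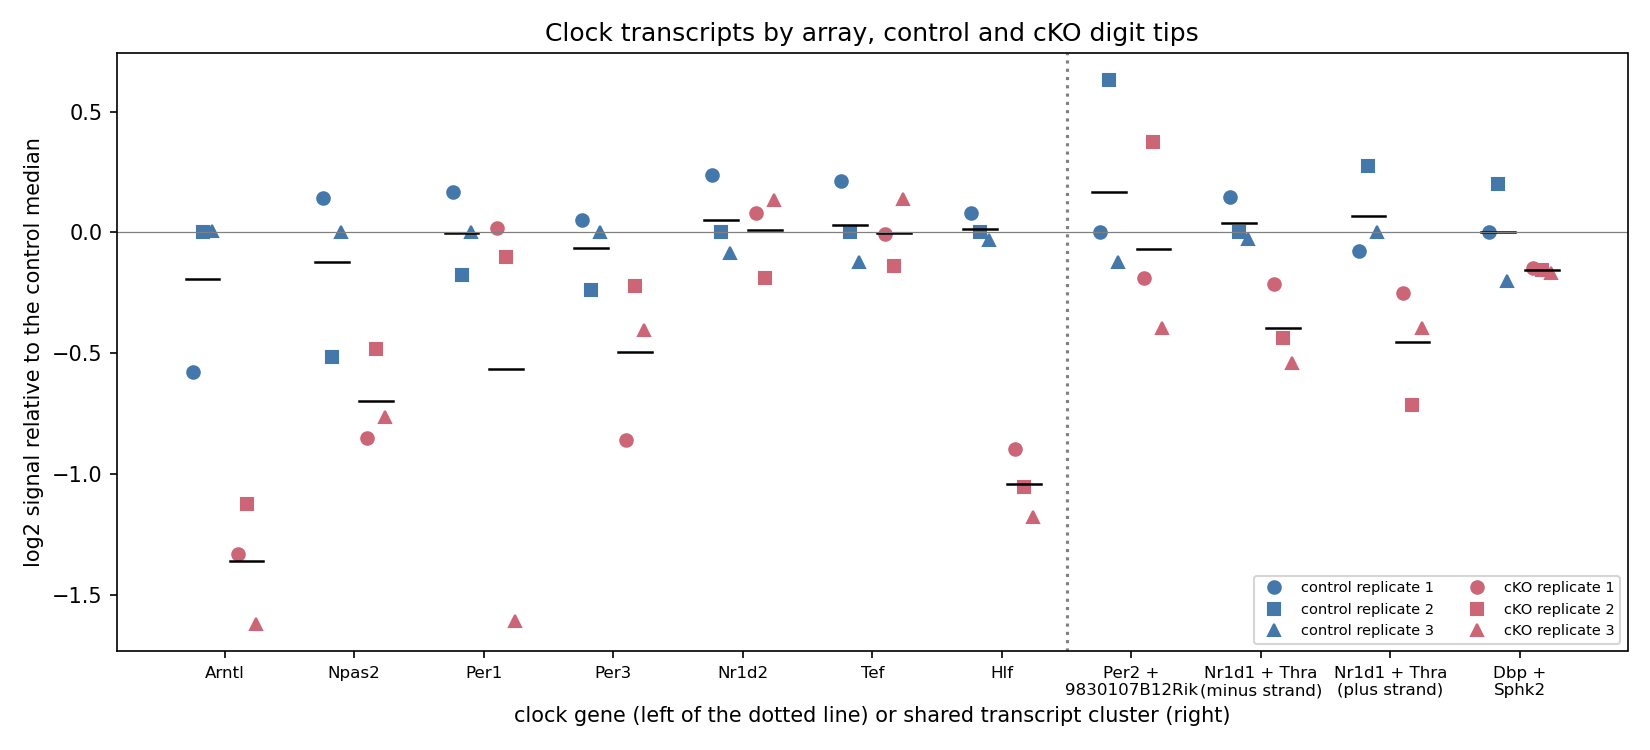
Log2 signal relative to the control median (vertical axis) of the 7 clock genes with a row of their own and of 4 clusters shared with a second gene (horizontal axis), with 1 point per array and a bar at the group mean. The cKO arrays lie below all control arrays in Arntl, Hlf and both Nr1d1 and Thra clusters, and Per1 is low in cKO replicate 3.

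Among the activators, Arntl, the non-redundant partner of the activating dimer, read -0.58, 0 and 0.00 (0.0048) in the control group, against -1.33, -1.12 and -1.62 in the cKO group. The groups did not overlap, and control replicate 1 was the control nearest to the cKO. The log2 difference was -1.17 ± 0.24 (limma standard error, n = 3 per group), a geometric mean of 44.5% of the control's, with a 95% interval of -1.69 to -0.65 and a limma adjusted p of 0.0237. The file places its cluster on the plus strand of build mm9, from 120350979 to 120457640. The limma adjusted p rose to 0.0721 when control replicate 2 was left out and to 0.113 when control replicate 3 was. It was 0.0662 without cKO replicate 1 and 0.15 without cKO replicate 3, so the call was lost in these 4 of 6 cases. The difference stayed between -1.36 and -1.04 whichever array was left out.

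Npas2, which can stand in for CLOCK in the dimer, read 0.14, -0.51 and 0 in the control group, against -0.85, -0.48 and -0.77 in the cKO group. Control replicate 2 lay among the cKO arrays, so the groups overlapped. The difference was -0.58 ± 0.24, with a 95% interval of -1.09 to -0.06, and did not pass over all genes (limma adjusted p = 0.326). Clock, the usual partner of Arntl, read -0.06, 0 and 0.04 in the control group, against 0.50, 0.13 and 0.35 in the cKO group. Every cKO array of Clock lay above every control array, yet its difference of 0.33 ± 0.21 did not pass (interval -0.12 to 0.78, limma adjusted p = 0.572). Within an array, Arntl minus Clock was -0.19 ± 0.29 (SD, n = 3) in the controls and -1.68 ± 0.38 in the cKO, a difference on which no test was made.

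The period genes, whose proteins repress the activator, did not pass the test. Per3 read 0.05, -0.24 and 0 in the control group, against -0.86, -0.22 and -0.41 in the cKO group, with a difference of -0.43 ± 0.23 (interval -0.93 to 0.07, limma adjusted p = 0.486) and of -0.25 without cKO replicate 1. Control replicate 2 and cKO replicate 2 were nearly level in it. Per1, the period gene that glucocorticoids also induce, read 0.17, -0.18 and 0 in the control group, against 0.02, -0.10 and -1.61 in the cKO group. Its difference of -0.56 ± 0.36 (interval -1.34 to 0.21, limma adjusted p = 0.575) came from cKO replicate 3, and it was -0.04 without that array. The shared cluster of Per2 and 9830107B12Rik differed by -0.24 ± 0.27 (limma over all clusters, adjusted p = 0.779) with overlapping groups.

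No measure of the REV-ERB repressors passed the test. Nr1d2 read 0.24, 0 and -0.09 in the control group, against 0.08, -0.19 and 0.13 in the cKO group. The groups overlapped throughout, and the difference of -0.04 ± 0.21 had an interval of -0.50 to 0.42 (limma adjusted p = 0.960). Nr1d1 overlaps Thra, a thyroid hormone receptor gene on the opposite strand, and both of its clusters carry both names. The cluster on the minus strand, the strand of Nr1d1, read 0.14, 0 and -0.03 in the control group, against -0.21, -0.44 and -0.54 in the cKO group. The cluster on the plus strand, the strand of Thra, read -0.08, 0.28 and 0 in the control group, against -0.25, -0.72 and -0.40 in the cKO group. In both clusters every cKO array lay below every control array, but the differences of -0.44 ± 0.20 and -0.52 ± 0.22 did not pass over all clusters, of which 1.38% were called (limma adjusted p = 0.434 and 0.373). The file places the minus-strand cluster from 98629246 to 98636556 of build mm9 and the plus-strand cluster from 98603187 to 98630320, so they overlap only at one end. How much of either signal belongs to Nr1d1 was not tested.

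Of the PAR bZIP output factors, Hlf fell and Tef did not pass the test. Hlf read 0.08, 0 and -0.03 in the control group, against -0.90, -1.05 and -1.18 in the cKO group, groups far apart relative to their spread. Its log2 difference was -1.06 ± 0.20 (limma standard error, n = 3 per group), 48.0% of the control's geometric mean, with an interval of -1.5 to -0.62 and a limma adjusted p of 0.0163. The file places its cluster on the minus strand of build mm9, from 90199879 to 90252209. The limma adjusted p was 0.0510 when control replicate 1 was left out, 0.0560 when control replicate 3 was and 0.0811 when cKO replicate 3 was, which ended the call. It was 0.0410 without cKO replicate 1, where Hlf was the 1 member still called. Differences lay between -1.13 and -0.99 whichever array was left out.

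Tef, a close relative of Hlf, read 0.21, 0 and -0.12 in the control group, against -0.01, -0.14 and 0.14 in the cKO group. Its groups overlapped, and the difference of -0.03 ± 0.21 (interval -0.49 to 0.42, limma adjusted p = 0.968) lay outside the interval of Hlf. Within an array, Hlf minus Tef was -0.01 ± 0.11 (SD, n = 3) in the controls and -1.04 ± 0.24 in the cKO. The shared cluster of Dbp and Sphk2, a sphingosine kinase gene, read 0, 0.20 and -0.20 in the control group, against -0.15, -0.16 and -0.17 in the cKO group. The cKO arrays were nearly level with one another there and lay inside the control range, with a difference of -0.16 ± 0.20 (interval -0.60 to 0.28, limma over all clusters, adjusted p = 0.803).

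The question of a time-of-day shift was put to these values by role. The mean of the activators Arntl and Npas2 was -0.16 ± 0.14 (SD, n = 3) in the controls and -1.03 ± 0.20 in the cKO. The mean of the repressors Per1, Per3 and Nr1d2 was 0.00 ± 0.15 (-0.0049) in the controls and -0.35 ± 0.24 in the cKO, and that of Tef and Hlf was 0.02 ± 0.11 and -0.52 ± 0.07. The activator mean and the repressor mean were therefore both lower in the cKO, by -0.87 and -0.35, and no test was made of these means. Nr1d1 and Dbp, which lie only on shared clusters, were not part of them. The repressor mean was -0.63 on cKO replicate 3, where Per1 was lowest, and -0.25 on cKO replicate 1, where Per3 was lowest, against -0.17 on cKO replicate 2. Its difference was -0.21 without cKO replicate 3 and -0.39 without cKO replicate 1, and that of the activators was -0.79 and -0.84. No hour of collection is given in the labels, and the part of collection time in these values was not tested.

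**Figure D2:**
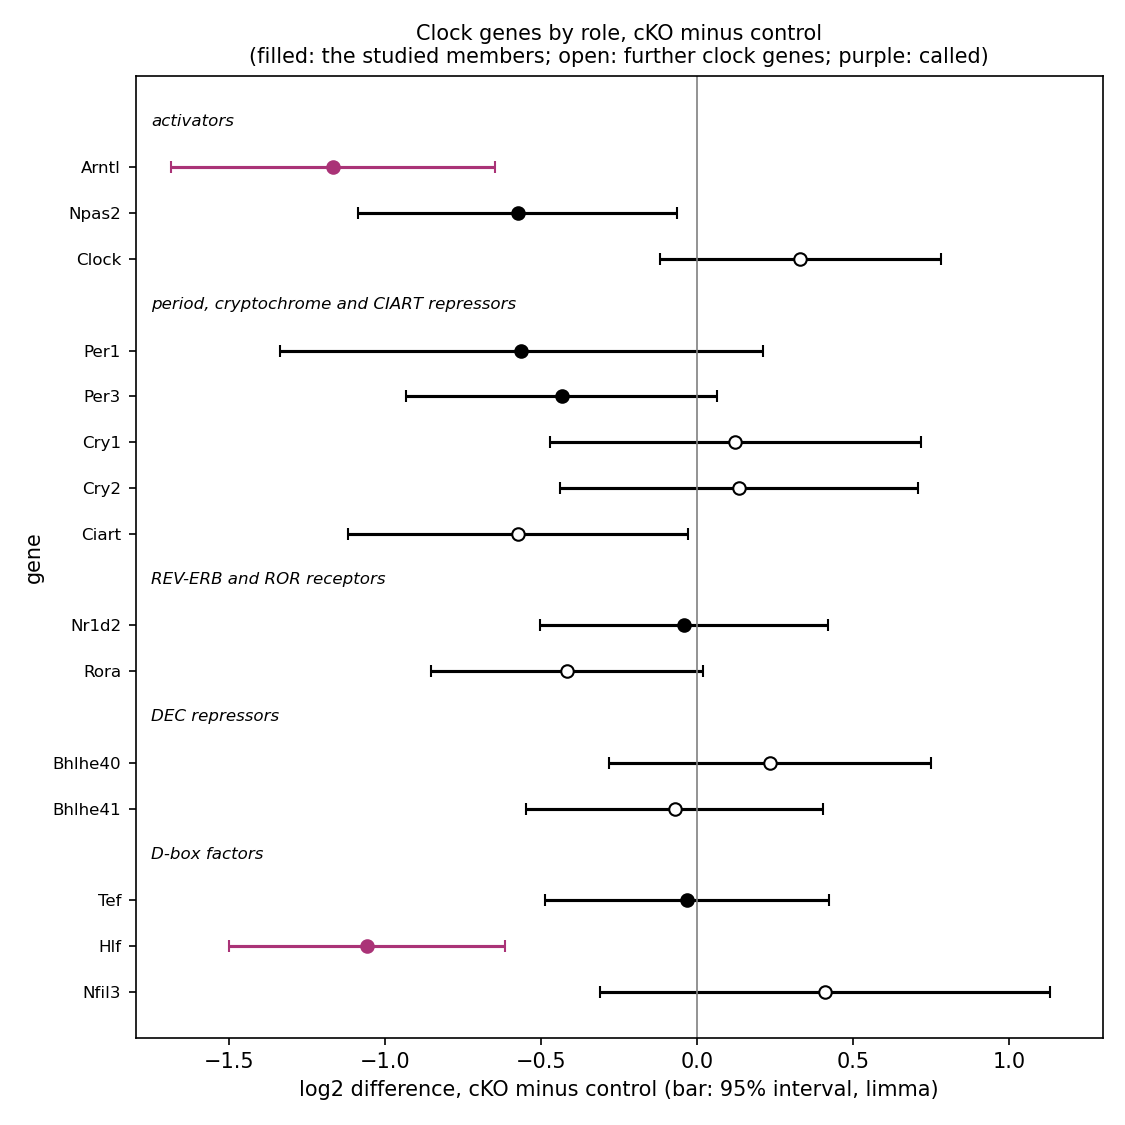
Log2 difference, cKO minus control (horizontal axis), of 7 members and 8 further clock genes grouped by role (vertical axis), with 95% intervals of limma over 3 arrays per group. The called genes Arntl and Hlf lie at -1.17 and -1.06, while Clock lies at 0.33, Nr1d2 at -0.04 and Tef at -0.03.

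Spread within the groups also differed between members. The residual SD of Hlf, 0.109, was at percentile 3.8 of all genes, and those of Tef and Nr1d2 at percentiles 11.2 and 14.7. Arntl, Npas2 and Per3 lay near the middle, at percentiles 55.2, 49.6 and 41.2, where the median gene had a residual SD of 0.281. Per1 stood at percentile 97.4, and its SD was 0.172 over the controls and 0.906 over the cKO arrays. The low value was that of cKO replicate 3. Ciart, a repressor of the CLOCK and ARNTL dimer, was also lowest there, at -1.14 against -0.39 and -0.42 on the other cKO arrays. Wee1, a cell cycle kinase gene named after its values were seen, read -1.23 on that array against 0.23 and -0.63. Nr1d2 and Tef, in contrast, had their highest cKO value on it, at 0.13 and 0.14.

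In the wider clock list, limma called 0 of 23 measured genes, of 24 listed, where 1.94% of all genes were called in either direction. A gene-wise test without shared variances also called 0, and 3 genes had an unadjusted limma p under 0.05 (12.5% of all genes). The median difference of the list was 0.06, with 10 genes below 0 and 13 above. Among these 3 were Ciart (-0.57 ± 0.25) and, named after its values were seen, Tspan4 (0.57 ± 0.26). Rora, a receptor that activates Arntl, read 0, -0.03 and 0.00 (0.0039) in the control group, against -0.55, -0.33 and -0.40 in the cKO group. Its groups did not overlap, but the difference of -0.42 ± 0.20 had a limma adjusted p of 0.433. Nfil3, which binds the D-box as a repressor, differed by 0.41 ± 0.33. Cry1 and Cry2, the cryptochrome repressors, differed by 0.12 ± 0.27 and 0.13 ± 0.26, and the DEC repressors Bhlhe40 and Bhlhe41 by 0.24 ± 0.24 and -0.07 ± 0.22. The shared cluster of Arntl2, a paralog of Arntl, and LOC634943 differed by 0.28 ± 0.27. Ciart lay on 2 clusters of its own, which differed by -0.62 and -0.53.

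Glucocorticoid-responsive genes were followed because Per1 is 1 of their kind. Fkbp5, a chaperone cofactor of the glucocorticoid receptor, read 0, 0.89 and -0.15 in the control group, against 1.90, 1.97 and 1.71 in the cKO group. It rose by 1.61 ± 0.27 with a limma adjusted p of 0.0065, and with 0.0655 when control replicate 1 was left out. Sgk1, a kinase gene, read 0, -0.32 and 0.57 in the control group, against 1.02, 0.59 and 0.74 in the cKO group, without overlap, and its difference of 0.70 ± 0.26 did not pass (limma adjusted p = 0.259). Tsc22d3 (-0.22 ± 0.22), Zbtb16 (0.42 ± 0.40) and Dusp1 (-0.27 ± 0.31) did not pass either. Thus 1 of 5 measured genes of the list was called higher, against 1.24% of all genes. Klf9 lay only on clusters shared with Gm9971, which differed by -0.27 ± 0.22 and 0.31 ± 0.38.

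A lower signal in bulk tissue can come from fewer cells of a type or from less RNA per cell, which cannot be told apart here. Some marker lists of other tissues moved between the same groups. Over all genes, 0.697% were called lower and 1.24% higher. Of 10 sebaceous gland genes 6 were called lower and 0 higher, and the mean of the list spanned -0.74 to 0.22 over control arrays, against -2.56 to -1.69 over cKO arrays. Of 9 osteoblast genes 5 were called higher, with list means of -0.19 to 0.17 in the controls and 1.26 to 1.85 in the cKO. Of 5 suprabasal epidermis genes 2 were called lower, Ivl (-1.68) and Flg2 (-1.23), with list means of -0.25 to 0.11 against -0.89 to -0.38. The other suprabasal genes differed by between -0.29 (Lor) and 0.11 (Krt1). Of 7 basal epidermis genes 1 was called lower, Krt15 (-1.45), with list means of -0.05 to -0.01 against -0.26 to -0.21. The other basal genes differed by between -0.31 (Col17a1) and 0.37 (Krt14), so that list mean rests largely on Krt15. Of 7 T cell genes 2 were called higher, Cd3g (3.9996) and Cd3d (1.6462), with list means of -0.18 to 0.19 against 0.79 to 1.11. The other T cell genes differed by between -0.17 (Cd4) and 0.56 (Cd8a), so that list mean rests largely on Cd3g and Cd3d. Of 8 adipocyte genes 1 was called higher, Fabp4 (1.2045), and the others differed by between -0.90 (Pparg) and 0.57 (Lep). The adipocyte list means of the cKO arrays, 0.02 to 0.25, lay inside the control range of -0.24 to 0.46. In the lists of 9 skeletal muscle, 6 macrophage, 7 neutrophil, 5 endothelium and 6 nail and hair matrix genes limma called 0. In that order 0, 2, 1, 4 and 2 genes had an unadjusted limma p under 0.05, against 12.5% of all genes. The endothelium list had means of -0.34 to 0.09 over control arrays, against 0.42 to 0.87 over cKO arrays. Without cKO replicate 1 the list means differed by -2.34 for sebaceous gland, 1.69 for osteoblast and -0.52 for suprabasal epidermis, against -2.07, 1.54 and -0.63 with it. The part of these tissues in the lower Arntl and Hlf signal was not tested.

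Genes with the most similar values were found by the root-mean-square log2 difference over the 6 arrays, as a description. Those nearest to Arntl were Mboat2 (0.135), Flg2 (0.146) and Pde8b (0.169), which differed between groups by -1.33, -1.23 and -1.31. Flg2 encodes a filaggrin-like protein of the cornified layer. Those nearest to Hlf were Mycl (0.0488), Cyp4b1 (0.130) and Tfap2b (0.137), which differed by -1.04, -0.97 and -0.88. Mycl followed Hlf closely on each array, at -0.89, -1.02 and -1.24 in the cKO. Arntl and Hlf were 0.371 from each other, and Npas2 was 0.600 from Arntl.

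The authors' deposited tables hold Hlf and leave Arntl out. In the authors' deposited table of clusters changed by at least 1.5-fold, Hlf stood at a signed fold of -2.08, and in their table of significant clusters it had a corrected p of 0.00844, from the test named in its header. No other member was in either table, although Arntl differed by more than Hlf. Before that, per the methods sheet and file header, the authors filtered out clusters by the 20th percentile of the normalised data. Applied to the control-centred values as all arrays of at least 1 group at or above the array's 20th percentile, that filter matched presence or absence in the deposited list in 1246 of 1246 clusters lower by at least 1.5-fold, and in 1412 of 1412 higher ones. The percentile lay between -0.16 and -0.13 on control arrays and between -0.39 and -0.31 on cKO arrays. Arntl was removed because all cKO arrays and control replicate 1, at -0.58, lay below it. Npas2, Per1 and Per3 were removed likewise, each through control replicate 2 and at least 1 cKO array, and their differences were also short of 1.5-fold. Of all clusters past 1.5-fold, 28.9% of the lower ones (360) and 98.8% of the higher ones (1395) passed. Since the values were already centred on the controls, the filter in this form read the distance from the control median and not the brightness of a cluster.

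**Figure D3:**
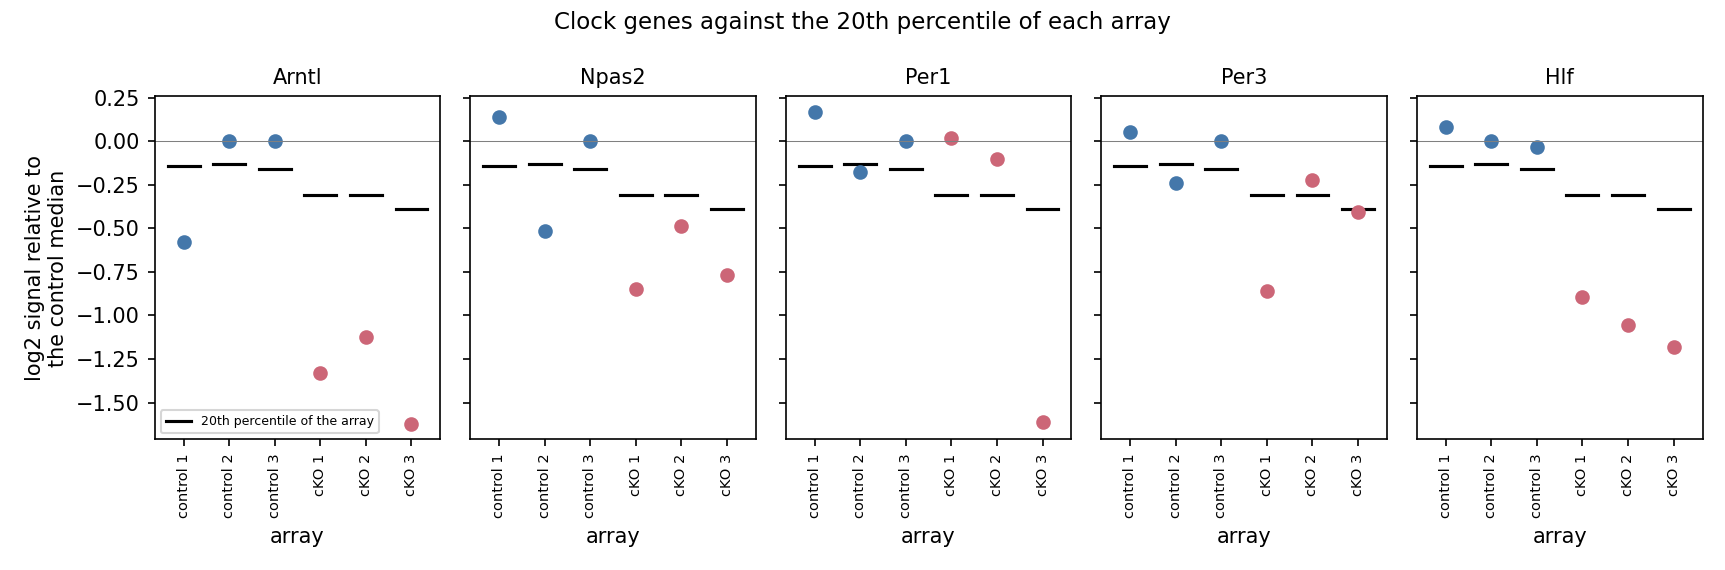
Log2 signal relative to the control median (vertical axis) of 5 clock genes on each of the 6 arrays (horizontal axis, control in blue and cKO in red), with a black line at the 20th percentile of the array. Hlf is above the line on all 3 control arrays and passed, while Arntl, Npas2, Per1 and Per3 each have a control array and a cKO array below it.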

How the data were processed

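The 6 RNA samples were hybridised to MoGene 1.0 ST arrays of Affymetrix. Per the deposited methods sheet, the authors quantile-normalised the signals with PLIER16 and set each cluster to the control median; the deposited values are log2. The file headers name annotation na31 on mm9. The authors' deposited signed fold scores and p-values followed a percentile filter, a 1.5-fold filter and a test named an unpaired t-test in the header and ANOVA in the methods sheet. The value table was used here. It differed from the workbook by at most 5e-05. Symbols were updated by Entrez identifier through a RefSeq table of GRCm38.p6 (21924 of 22971 single-gene clusters matched). The 2946 clusters with several genes and 2936 with none were left out of the gene fit, and clusters of a gene were averaged. Limma 3.58.1 in R 4.3.3 (lmFit, eBayes, prior degrees of freedom 8.79) compared cKO with control over 20793 genes without covariate, with Benjamini-Hochberg adjustment at 0.05. Shared clusters were tested in a fit over all 28853 clusters. The script was tested on simulated data. Members, lists and alternatives were chosen with earlier results of these data known. All members were named, with called or core genes of the wider clock list, all glucocorticoid-responsive genes measured and the 3 genes nearest to Arntl and to Hlf. Some genes of the wider clock list are counted but not reported here by name. The likeness search for Dbp was not done, since it has no row of its own. Figures were drawn with matplotlib 3.10.9 in Python 3.11.15. The number of arrays limits the precision. Alternatives were the workbook values, centred arrays, the replicate block, array weights, a plain t-test, robust variances, clusters tested singly, the percentile filter and leaving out each array. A fit over all clusters, and role and list means without 1 cKO array, were added after the data were seen.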

Additional observations from a re-analysis of the deposited data

How the results depend on the processing

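The number of clock members called was 2 in the reported fit and 0 with a plain t-test over all genes. With the authors' percentile filter it was 1 (Hlf), because 4 of the 7 members were not tested there. Leaving out 1 array gave between 0 and 2. It stayed 2 with the workbook values, centred arrays, array weights, robust variances, clusters tested singly and, chosen after seeing the data, a fit over all clusters. The plain t-test gave an adjusted p of 0.25 for Arntl and 0.0915 for Hlf, from the same differences of -1.17 and -1.06. The difference of Nr1d2 turned to 0.026 with array weights, 0.052 without control replicate 1 and 0.0579 without cKO replicate 2, and that of Tef to 0.0007, 0.0597 and 0.0367. Over all arrays left out in turn they ranged from -0.1095 to 0.0579 and from -0.1089 to 0.0597 (limma adjusted p of at least 0.898 in each). The cause was not tested. The number of wider clock genes called was 0 in each setting run. Deviations of same-numbered arrays from their group means correlated at 0.04, 0.14 and -0.09 across genes, against -0.19 to 0.14 for arrays of unlike number. These values show no sign that the numbers pair the samples, but 3 arrays per group cannot exclude a weak pairing. With the replicate block the members called stayed 2, and the calls over all genes went from 258 higher and 145 lower to 357 and 218. Array weights gave 523 and 305, the t-test 10 and 3, the percentile filter 307 and 47, and leaving out 1 array between 133 and 261 higher and between 59 and 165 lower, both lowest without cKO replicate 3.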
